A study of Homo sapiens with 4 samples.

Results

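KIAA1324 3NQ is a form of the transmembrane glycoprotein KIAA1324 in which 3 asparagines that can carry an N-glycan were replaced by glutamine, and the comparison described here sets MKN28 cells that carried it against control cells that carried luciferase (Luc). The series held 4 poly(A) RNA-seq libraries of MKN28, a cell line derived from a human gastric adenocarcinoma. The constructs were Luc, KIAA1324 WT, 3NQ and ΔTM, a form without the transmembrane region. The comparison of 3NQ with Luc asked which transcripts differed between cells given the glycosylation mutant and cells given the control. There was 1 library for each construct and no replicate, so no value below has an error or a test, and a difference between 3NQ and Luc is a difference between 2 libraries. Of the 23362 genes in the table, 11573 had at least 1 FPKM (fragments per kilobase of transcript scaled to the library size) in 3NQ or in Luc and were compared. The measure of difference was the log2 ratio, log2((3NQ FPKM + 1)/(Luc FPKM + 1)), and a gene was called higher or lower when the ratio passed 1.5-fold, which is 0.58 on the log2 scale.

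According to the study's methods, the KIAA1324 constructs carried an HA tag and were delivered by a tetracycline-inducible retrovirus, and these cells were selected with G418 and puromycin. The methods did not name the Luc cells, but the study's results list luciferase among the inserts of its tetracycline-inducible viral system. How the Luc cells were selected was not given. Whether each line was a pool or a clone, and whether doxycycline was given before RNA was taken, was not given in the sources used here. Depth was also unknown, since FPKM values carry no read totals, and an FPKM of 0 may be a failed estimate rather than the absence of a transcript.

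N-glycans are attached in the endoplasmic reticulum (ER) to asparagine in the motif N-X-S or N-X-T, where X is any residue other than proline. The glycan makes the folding protein a substrate for the lectin chaperones calnexin and calreticulin, and glycoproteins that do not fold are retained and then exported to the cytosol for degradation. When unfolded proteins accumulate in the ER, the sensors IRE1, PERK and ATF6 start the unfolded protein response, which raises transcripts of chaperones, disulfide isomerases, translocation machinery and degradation factors. The best known DNA elements of this response are the ER stress elements ERSE and ERSE-II, read by ATF6 with the CCAAT-binding factor NF-Y, and the unfolded protein response element UPRE, read by XBP1 and ATF6.

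The sites that set 3NQ apart from WT are shown first, because they are the only designed difference between those constructs. In the reference coding sequence of KIAA1324, which encodes 1013 residues, 9 sequons of the form N-X-S or N-X-T were found, and the 3 substitutions N153Q, N404Q and N672Q removed 3 of them and left 6. Positions are counted from the initiator methionine. The reference sequence on GRCh37 around each site is given below on the + strand of chromosome 1, with 12 bases of spliced coding sequence on each side and the sequon codons in capitals, starting with the codon of the replaced asparagine. The first lies in exon 3 at chr1:109707303-109707311, the second in exon 9 at chr1:109730967-109730975 and the third in exon 15 at chr1:109737109-109737117 of the 22 exons of the transcript. These are reference bases; the bases of the construct itself were not read.
N153Q: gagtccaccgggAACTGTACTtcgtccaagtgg
N404Q: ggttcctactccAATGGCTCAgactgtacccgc
N672Q: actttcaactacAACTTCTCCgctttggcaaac

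KIAA1324 (ENSG00000116299, chr1:109656301-109749401, + strand) was measured at 8197 FPKM in 3NQ and 11185 in WT, against 2.86 in Luc, and was listed at 0 for the library labelled ΔTM. Between 3NQ and Luc the log2 ratio was 11.05, the largest of all genes compared. The gene was thus high in 3NQ and WT and low in Luc, as their labels say, but the library labelled ΔTM held no measured KIAA1324, which goes against its label. The 3NQ library carried 1.40% of its summed FPKM in this gene and WT carried 1.98%. A gene-level FPKM counts construct and endogenous transcripts together and does not show the substituted codons, and the locus overlaps C1orf194. The paralogue KIAA1324L lay at 10.6 FPKM in Luc, 15.1 in WT, 12.2 in the library labelled ΔTM and 13.6 in 3NQ.

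Epithelial markers were present in both libraries, which does not identify the line. All 7 epithelial identity markers passed the filter, among them the keratin genes KRT8, at 8501 FPKM in Luc and 6362 in 3NQ, and KRT18, at 3685 and 2673, and the adhesion gene EPCAM, at 391 and 360. Of 15 markers of fibroblasts, endothelium and leukocytes, 14 were in the table and 2 passed the filter, COL1A1 at 15.1 FPKM in Luc and 12.1 in 3NQ and CD68 at 4.85 and 5.84. The sum over these markers ranged from 17.8 to 20.99 FPKM over the 4 libraries.

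Most genes differed little between 3NQ and Luc. The median log2 ratio was -0.038, the middle 90 percent of genes lay between -0.47 and 0.38, and 95.7% of genes were within 1.5-fold. Of the 11573 genes, 202 were higher in 3NQ, which is 1.75% of those compared, and 301 were lower, which is 2.60%. Among the calls, 140 of the higher and 175 of the lower genes reached 5 FPKM in either library, and 58 higher and 61 lower genes passed 2-fold. The share of calls that were higher was 40.2%, and it was 51.6% when 5 in place of 1 was added to each FPKM. At the edge of the call, ETS1 was inside at 0.593 and LETM2 outside at 0.583, and on the lower side ELOVL6 was inside at -0.586 and MRPL30 outside at -0.585.

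**Figure D1:**
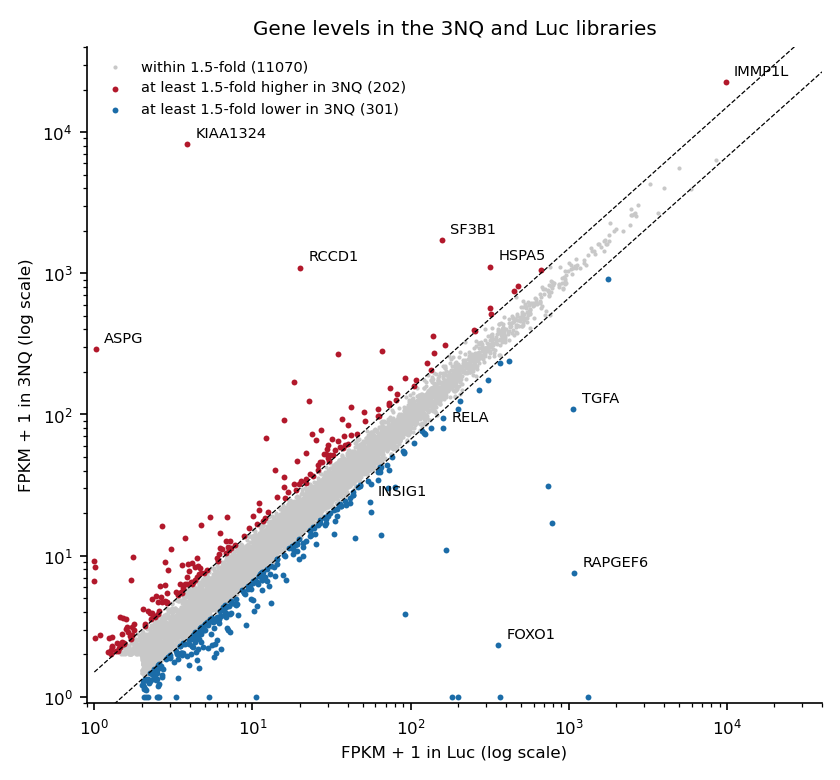
FPKM + 1 of each of the 11573 genes in Luc (x, log scale) and 3NQ (y, log scale), 1 library each, with dashed lines at 1.5-fold; red points are the 202 genes higher in 3NQ and blue points the 301 lower. KIAA1324 stands far above the diagonal at 2.86 and 8197 FPKM, and FOXO1, RAPGEF6 and TGFA stand far below it.

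The genes that fold proteins in the ER were the group with the most calls. All 24 ER chaperones and folding enzymes passed the filter and all 24 had a log2 ratio above 0, with a median of 0.83 against -0.038 for all genes compared. Of these, 17 were higher by 1.5-fold or more and none was lower. The median stayed between 0.77 and 0.87 under the other scalings and pseudocounts.

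HSPA5, the ER HSP70 known as GRP78 or BiP, was measured at 318 FPKM in Luc, 521 in WT, 1028 in the library labelled ΔTM and 1114 in 3NQ. Its log2 ratio of 3NQ to Luc was 1.80, the highest of the list. The J-domain co-chaperones of BiP stood next to it. DNAJB9 lay at 13.0 FPKM in Luc, 29.8 in WT, 25.5 in the library labelled ΔTM and 39.2 in 3NQ, a log2 ratio of 1.52, and DNAJC3, also an inhibitor of the kinase PERK, at 25.9, 40.6, 66.8 and 76.0 in the same order, also 1.52. In both of them the lowest level was that of Luc and the highest that of 3NQ. DNAJB11 (0.98) and DNAJC10 (0.81) were higher in 3NQ as well. The nucleotide exchange factors of BiP were higher too, HYOU1 at 138 FPKM in Luc and 358 in 3NQ (1.37) and SIL1 at 30.8 and 66.0 (1.07).

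Smaller proteins of the ER lumen were also higher. SDF2L1, a partner of the BiP complex, was at 36.1 FPKM in Luc, 43.6 in WT, 127 in the library labelled ΔTM and 92.0 in 3NQ. MANF, a secreted ER stress protein, was at 18.1, 27.2, 61.5 and 45.7, and CRELD2 was at 14.8, 14.8, 51.5 and 35.4. For these 3 genes Luc and WT were low and the other two libraries high, with 3NQ below the library labelled ΔTM.

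HSP90B1, the ER HSP90 known as GRP94, was at 315 FPKM in Luc and 570 in 3NQ (log2 ratio 0.85), and the disulfide isomerases PDIA4 (0.94), PDIA3 (0.74) and PDIA6 (0.66), the prolyl isomerase PPIB (0.75) and the lectin chaperone calnexin, CANX (0.65), were all called higher. Calreticulin, CALR, the soluble partner of calnexin, was at 757 FPKM in Luc, 693 in WT, 1830 in the library labelled ΔTM and 1107 in 3NQ, and at 0.55 it was just short of 1.5-fold. The 2 ERO1 oxidases, which reoxidise the disulfide isomerases, differed from each other. ERO1LB was at 1.91 FPKM in Luc and 6.90 in 3NQ (1.44), and ERO1L was at 66.0 and 69.1 (0.06). UGGT1, the glucosyltransferase that returns misfolded glycoproteins to the lectin chaperones, was at 33.7 and 42.4 FPKM (0.32).

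**Figure D2:**
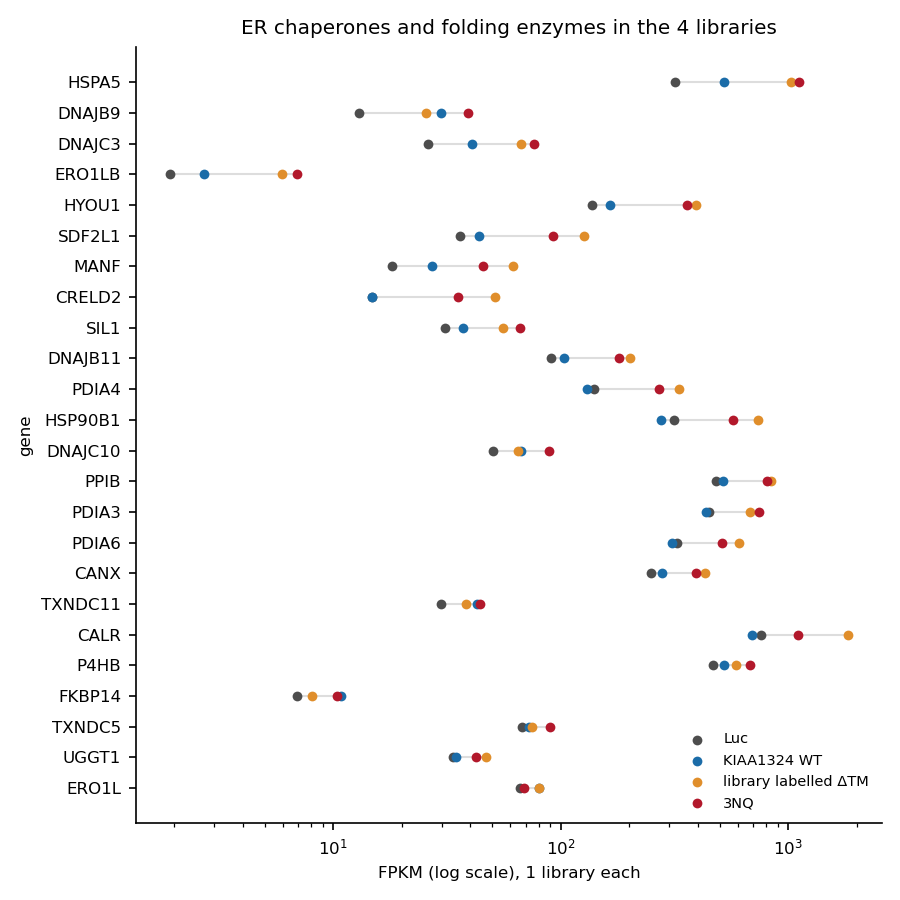
FPKM (log scale) of the 24 ER chaperones and folding enzymes in the 4 libraries, 1 point for each library, ordered by the log2 ratio of 3NQ to Luc. The 3NQ point lies to the right of the Luc point in every row.

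The same genes were set against WT, which carried the same protein with its asparagines; this comparison shares the 3NQ library with the one against Luc. Of the 24 genes, 15 were 1.5-fold or more higher in 3NQ than in WT and none was lower, with a median log2 ratio of 0.73. Among all genes compared, 1.56% were higher in 3NQ than in WT and 2.69% were lower, with a median of -0.023. Against Luc, the medians of the list were 0.23 for WT, 0.92 for the library labelled ΔTM and 0.83 for 3NQ, and these 3 comparisons share the 1 Luc library. HSP90B1, at 275 FPKM in WT, and PDIA4, at 131, were below their Luc levels there.

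The promoters of several of these genes hold the letters of the ER stress elements, and they are printed here for 5 genes with the letters that were higher in 3NQ. DNAJB9 and DNAJC3, the next highest ratios of the folding list after HSPA5, had windows without ERSE or ERSE-II. The windows run from 250 bases before to 50 bases after the start site in RefSeq (GRCh38.p14), on the strand of the gene. Capitals mark, on either strand, ERSE (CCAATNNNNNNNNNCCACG), ERSE-II (ATTGGNCCACG) and UPRE (TGACGTGG), whose reverse complement shares CCACG with the other 2, so that they can overlap. HSPA5 is at chr9:125241294-125241593 on the - strand, HSP90B1 at chr12:103930160-103930459 on the + strand, HYOU1 at chr11:119057156-119057455 on the - strand, SDF2L1 at chr22:21642052-21642351 on the + strand and HERPUD1 at chr16:56931892-56932191 on the + strand.
HSPA5: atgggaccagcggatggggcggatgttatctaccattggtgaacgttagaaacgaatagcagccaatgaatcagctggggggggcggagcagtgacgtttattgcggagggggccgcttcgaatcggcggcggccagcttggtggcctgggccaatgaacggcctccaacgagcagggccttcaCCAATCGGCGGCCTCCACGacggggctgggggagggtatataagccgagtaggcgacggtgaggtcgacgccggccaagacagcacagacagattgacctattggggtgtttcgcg
HSP90B1: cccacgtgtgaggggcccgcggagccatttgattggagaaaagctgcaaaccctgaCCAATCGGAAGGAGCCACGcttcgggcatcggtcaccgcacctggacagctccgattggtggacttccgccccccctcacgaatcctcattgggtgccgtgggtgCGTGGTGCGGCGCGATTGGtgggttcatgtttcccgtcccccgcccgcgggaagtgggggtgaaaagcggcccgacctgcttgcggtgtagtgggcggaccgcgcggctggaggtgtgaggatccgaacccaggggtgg
HYOU1: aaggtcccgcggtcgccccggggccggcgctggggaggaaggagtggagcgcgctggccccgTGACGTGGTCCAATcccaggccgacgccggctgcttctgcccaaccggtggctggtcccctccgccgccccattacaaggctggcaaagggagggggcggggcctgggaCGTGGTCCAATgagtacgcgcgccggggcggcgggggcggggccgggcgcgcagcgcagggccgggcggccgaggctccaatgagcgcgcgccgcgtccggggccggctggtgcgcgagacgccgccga
SDF2L1: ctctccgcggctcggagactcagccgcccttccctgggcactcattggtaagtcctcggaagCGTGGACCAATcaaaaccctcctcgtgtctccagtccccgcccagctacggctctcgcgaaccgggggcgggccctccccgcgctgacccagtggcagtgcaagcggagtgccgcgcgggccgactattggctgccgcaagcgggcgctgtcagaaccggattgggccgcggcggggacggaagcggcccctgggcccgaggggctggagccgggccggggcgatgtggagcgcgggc
HERPUD1: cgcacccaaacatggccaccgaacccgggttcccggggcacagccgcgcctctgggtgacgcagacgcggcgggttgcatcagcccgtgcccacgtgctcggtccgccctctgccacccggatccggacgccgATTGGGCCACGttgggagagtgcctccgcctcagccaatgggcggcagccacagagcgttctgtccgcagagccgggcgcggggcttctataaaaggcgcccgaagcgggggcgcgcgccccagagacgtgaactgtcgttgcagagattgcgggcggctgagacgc

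In the 27305 genes with a promoter window in the RefSeq table, the ERSE letters were found in 25 (0.0916%) and the ERSE-II letters in 19 (0.0696%). Of the genes compared, 9380 were matched to a window by symbol, and 147 of these were called higher and 215 lower. ERSE was present in 16 of the 9380, of which 8 were higher in 3NQ and none was lower, with a median log2 ratio of 0.59. ERSE-II was present in 14, of which 3 were higher, HERPUD1, HYOU1 and SDF2L1, and none was lower. The ER folding list accounted for much of this, since 7 of its 22 matched genes held ERSE (CALR, CANX, CRELD2, ERO1LB, HSP90B1, HSPA5 and PDIA6). Outside the ER lists, 2 of 19 genes with either element were called higher. These were FICD, the enzyme that adds AMP to BiP, at 3.47 FPKM in Luc and 8.65 in 3NQ, and SERP1, a protein of the translocon, at 134 and 207; both were named after their values were seen. A match of letters is a description of the window and does not show that a factor was bound.

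**Figure D3:**
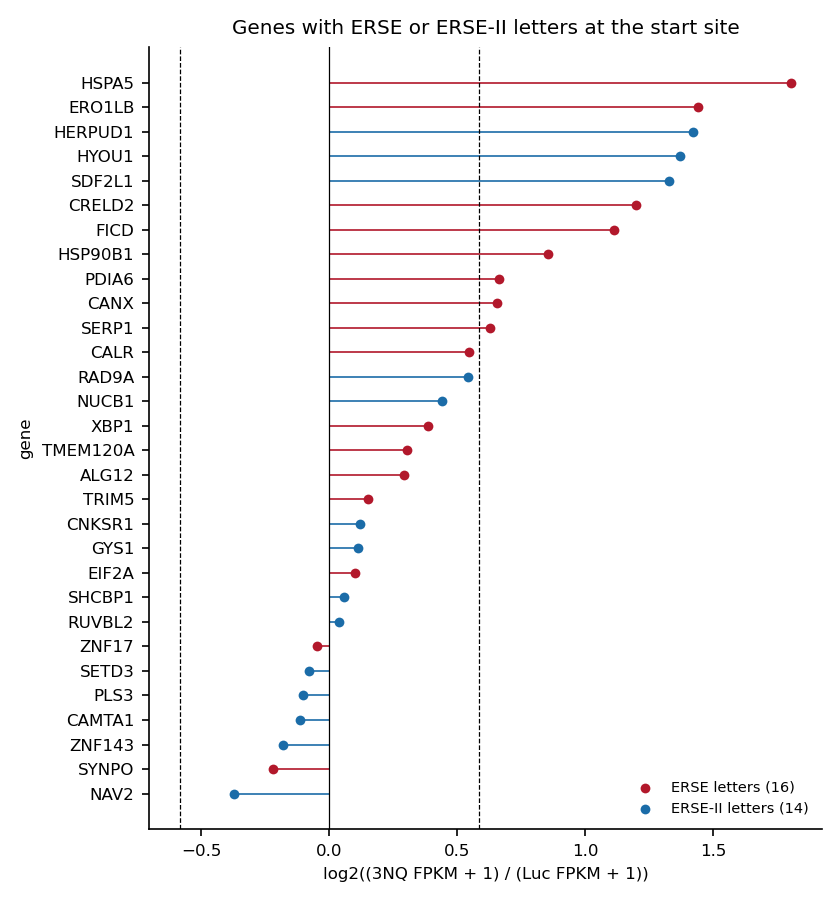
Log2 ratio of 3NQ to Luc (x, FPKM + 1) for the 30 compared genes whose RefSeq promoter window holds ERSE letters (red, 16 genes) or ERSE-II letters (blue, 14 genes), with dashed lines at 1.5-fold. The 11 genes past the upper line run from HSPA5 at 1.80 to SERP1 at 0.63, and none lies past the lower line.

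The regulators of the unfolded protein response differed less than the folding genes. All 17 sensors and regulators passed the filter, 3 were higher, none was lower, and the median log2 ratio was 0.32. Over all genes compared, 1.75% were higher and 2.60% lower. The median of the list in WT against Luc was 0.25. Between 3NQ and WT, 1 of the 17 was lower in 3NQ, none was higher, and 13 lay below 0, with a median of -0.079. In that pair 1.56% of all genes compared were higher and 2.69% lower. DDIT3, which encodes the transcription factor CHOP, was at 10.0 FPKM in Luc, 21.1 in WT, 19.9 in the library labelled ΔTM and 20.1 in 3NQ, so that Luc stood apart from 3 libraries near one level. Its ratio was 0.94, and its locus overlaps MARS. PPP1R15A, the GADD34 subunit that restores translation, was at 25.1, 52.8, 29.1 and 39.5, and ATF5 at 15.9, 19.1, 19.0 and 27.0. XBP1, the factor spliced by IRE1, was at 83.5 FPKM in Luc and 109 in 3NQ (0.39). The sensor genes ERN1 (IRE1, 0.50), EIF2AK3 (PERK, 0.46) and ATF6 (0.18) were not called. ATF4, the factor downstream of PERK whose protein is set mainly by translation, was at 367 FPKM in Luc, 306 in WT, 302 in the library labelled ΔTM and 261 in 3NQ, a log2 ratio of -0.49 and the lowest of the list. A gene-level table does not show the spliced form of XBP1.

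ER-associated degradation, which carries misfolded proteins to the proteasome, had 5 higher and no lower genes among the 19 that passed. HERPUD1, a scaffold of the ubiquitin ligase at the ER membrane, was at 41.2 FPKM in Luc, 90.9 in WT, 91.8 in the library labelled ΔTM and 112 in 3NQ (1.42). The ligase complex was higher as well, with SYVN1, the HRD1 ligase, at 34.98 FPKM in Luc and 57.8 in 3NQ, its cofactor SEL1L at 27.4 and 51.7, the derlin DERL2 at 36.7 and 69.0 and the VCP receptor VIMP at 49.6 and 104. In the same order of genes, WT was at 53.9, 37.4, 52.7 and 91.8. The library labelled ΔTM was at 60.7, 46.1, 68.6 and 74.8, so all were above Luc there too. None of the 19 genes was called between 3NQ and WT, with a median of 0.10. In that pair 1.56% of all genes compared were higher and 2.69% lower, so no call in a short list does not set it apart. The ATPase VCP, at 383 and 406 FPKM, and the mannosidases EDEM1 (0.37), EDEM2 (0.35) and EDEM3 (0.25) were within 1.5-fold. None of 34 proteasome subunits was called, and their ratios ran from -0.32 to 0.20. None of 14 cytosolic heat shock protein genes was called either, and 95.7% of all genes compared were within 1.5-fold.

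The machinery that brings proteins into the ER and moves them to the Golgi had 4 higher and no lower genes of 37, with a median of 0.26. All 4 belong to translocation. SEC61A1, the pore of the translocon, was at 165 FPKM in Luc, 242 in WT, 212 in the library labelled ΔTM and 307 in 3NQ (0.90). SEC61B was at 72.5 FPKM in Luc and 119 in 3NQ, and the translocon-associated SSR1 and SSR3 were at 71.8 and 116 and at 254 and 391. A ratio above 0 was found in 33 of the 37 genes, and in 4042 of the 9380 genes matched to a promoter window. Among coat genes, COPG1 of COPI was at 101 FPKM in Luc and 128 in 3NQ (0.34) and COPB1 at 102 in both (-0.0014), and SEC31A of COPII was at 67.1 and 80.8 (0.26) and SEC23A, the lowest of the list, at 41.8 and 34.7 (-0.26). In WT the median of this list against Luc was 0.35, above the 0.26 of 3NQ. Between 3NQ and WT, 3 genes were lower in 3NQ and none was higher, where 2.69% of all genes compared were lower and 1.56% higher. The UPRE letters were present in 10 of the 32 matched genes of this list (31.2%) and in 1.24% of the 9380 matched genes. Genes of the list with these letters included SSR3, which was called higher, and COPB1 and SEC23A, with ratios below 0. Of all 116 matched genes with UPRE, 8 were higher and 1 was lower in 3NQ. Their median log2 ratio was 0.054, against -0.036 for all matched genes.

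N-glycan assembly itself had 2 higher and no lower genes of 32, with a median of 0.13. Among all genes compared, 1.75% were higher and 2.60% lower. ALG2, a mannosyltransferase that builds the lipid-linked glycan, was at 29.0 FPKM in Luc, 49.3 in WT, 38.8 in the library labelled ΔTM and 59.7 in 3NQ (1.02). ALG5, which makes the glucose donor of that glycan, was at 19.2, 21.2, 31.2 and 32.7 (0.74), and its locus overlaps EXOSC8. The subunits of the oligosaccharyltransferase, the enzyme that transfers the glycan, were not called, with STT3A at 0.45, RPN1 at 0.44, DDOST at 0.42 and STT3B at 0.14. Of 15 fucosylation genes, FUT8, which adds the core fucose to N-glycans, was lower at 27.6 FPKM in Luc and 17.5 in 3NQ (-0.63), and the others were within 1.5-fold. FUT8 was at 19.3 FPKM in WT and 21.5 in the library labelled ΔTM, so Luc was above every other library. Its log2 ratio of 3NQ to WT was -0.13.

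**Figure D4:**
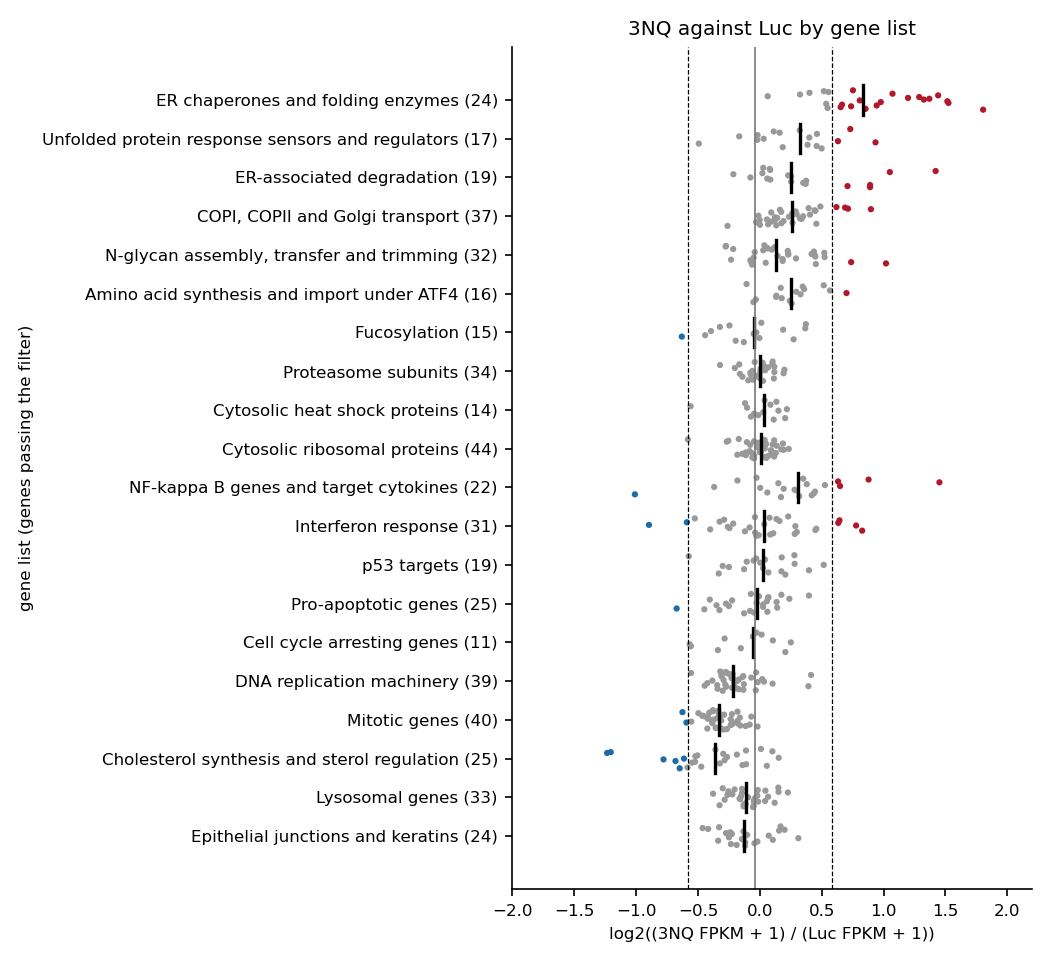
Log2 ratio of 3NQ to Luc (x, FPKM + 1) of the genes in 20 lists, with the number of genes that passed the filter in brackets; thick bars are list medians, dashed lines 1.5-fold and the grey line the median of all genes compared. The ER folding list lies farthest to the right, with a median of 0.83, and the sterol list farthest to the left, with -0.36.

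Genes of cholesterol synthesis had 6 lower and no higher members among the 25 that passed. A ratio below 0 was found in 21 of them, with a median of -0.36 (-0.32 to -0.36 under the other settings). Over all genes compared, 1.75% were higher and 2.60% lower, with a median of -0.038. Of the 9380 genes matched to a promoter window, 4042 had a ratio above 0. INSIG1, which retains the SREBP activation complex in the ER and is itself an SREBP target, was at 54.2 FPKM in Luc, 26.2 in WT, 40.5 in the library labelled ΔTM and 22.9 in 3NQ (-1.21). Luc was the highest and 3NQ the lowest of the 4 libraries. Enzymes of the pathway had smaller ratios. HMGCS1, at the start of the mevalonate steps, was at 63.5 FPKM in Luc and 40.2 in 3NQ (-0.65), LSS, which closes the sterol ring, at 42.2 and 25.9 (-0.68), and TM7SF2, a sterol reductase, at 19.9 and 11.2 (-0.78). MSMO1 was at 116 and 75.8 and was within 1.5-fold after either rescaling of the libraries. No gene of the list was called between 3NQ and WT in either direction, where 1.56% of all genes compared were higher and 2.69% lower. Against Luc the medians were -0.31 for WT and -0.16 for the library labelled ΔTM. The letters of the sterol element SRE (TCACNCCAC) were present in 1 of the 19 matched genes of the list (5.26%). They were present in 1.36% of the 9380 matched genes and in 0.930% of the 215 called lower.

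The genes of cell division showed a small difference in 1 direction. All 40 mitotic genes had a ratio below 0 in 3NQ, with a median of -0.33 and only 2 past 1.5-fold. The median of all genes compared was also below 0, at -0.038. HMMR, a spindle protein, was at 31.7 FPKM in Luc, 18.4 in WT, 26.2 in the library labelled ΔTM and 20.2 in 3NQ, and CENPE, a kinetochore motor, was at 13.2, 10.7, 15.8 and 8.44; CENPE was within 1.5-fold after either rescaling. The mitotic kinase CDK1 was at 138 FPKM in Luc and 112 in 3NQ (-0.29), TOP2A at 141 and 105 (-0.42) and CCNB1 at 238 and 198 (-0.27). The list lay lower still in WT, with a median of -0.58 against Luc. Of its 40 genes, 39 were higher in 3NQ than in WT, none of them by 1.5-fold. Of all genes compared, 5269 were above their WT level in 3NQ and 6298 below it. The CHR letters (TTTGAA), an element of late cell cycle promoters, were present in 25 of the 34 matched mitotic genes (73.5%). They were present in 18.2% of all RefSeq promoter genes, in 13.8% of the 9380 matched genes and in 54 of the 215 called lower (25.1%). Only 2 mitotic genes were called lower, so most of these 54 lay outside the mitotic list.

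The replication genes followed with a median of -0.21 (-0.038 for all genes compared), and 34 of 39 were below 0 with none called. PCNA, the sliding clamp, was at 284 FPKM in Luc and 246 in 3NQ, and the helicase subunit MCM2 was at 130 and 105. CDC6 (0.39) and POLE3 (0.41) were the highest of this list. Among G1/S genes CCND2 was called higher, at 0.70 FPKM in Luc and 1.57 in 3NQ, a level near the filter, while CCND1 was at 281 and 280.4. None of 11 genes that arrest the cycle was called. Among all genes compared, 95.7% were within 1.5-fold, so few calls in a short list do not set it apart. Of these the CDK inhibitor CDKN1A was at 48.8 FPKM in Luc, 83.6 in WT, 46.6 in the library labelled ΔTM and 56.4 in 3NQ (0.21), and CDKN2C was at 10.5, 5.06, 8.32 and 6.82 (-0.56). None of 19 p53 targets was called, and of 25 pro-apoptotic genes BMF alone was, lower at 2.75 FPKM in Luc and 1.35 in 3NQ. The median of the pro-apoptotic list was -0.026 and changed sign with the rescaling of the libraries.

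**Figure D5:**
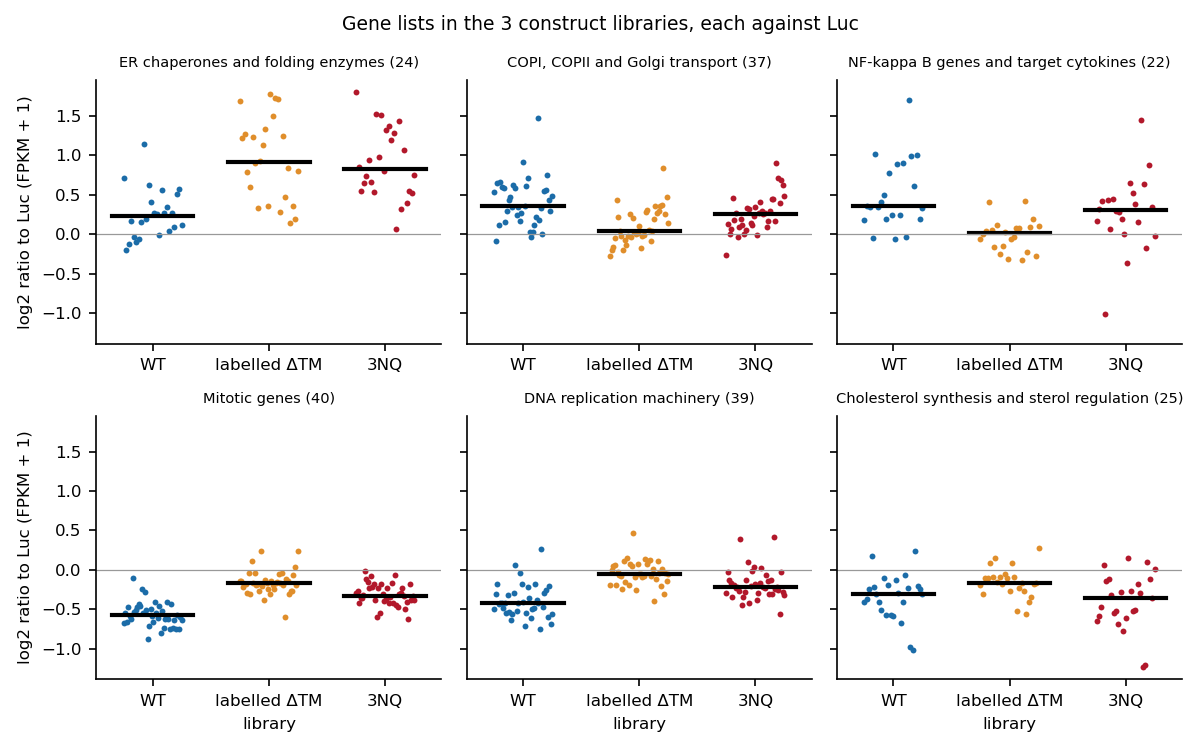
Log2 ratio to Luc (y, FPKM + 1) of the genes of 6 lists in WT, the library labelled ΔTM and 3NQ (x), 1 point for each gene and a bar at the median; all 3 ratios share the 1 Luc library. The ER folding median is 0.23 in WT, 0.92 in the library labelled ΔTM and 0.83 in 3NQ, and the mitotic median is -0.58, -0.17 and -0.33.

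NF-kappa B genes and target cytokines had 4 higher and 1 lower member of 22, with a median of 0.31. With 5 in place of 1 added to each FPKM the median was 0.20, and IL1A, CCL20 and TRAF1 were no longer called. Over all genes compared, 1.75% were higher and 2.60% lower. The median of this list in WT against Luc was 0.35, above that of 3NQ. Between 3NQ and WT, 2 of the 22 genes were lower in 3NQ, none was higher, and 16 lay below 0, with a median of -0.24. In that pair 1.56% of all genes compared were higher and 2.69% lower. IL8, a neutrophil chemokine, was at 5.88 FPKM in Luc, 21.4 in WT, 8.25 in the library labelled ΔTM and 17.8 in 3NQ (1.45). IL1A was at 2.83, 6.66, 3.38 and 6.04 (0.88), and CCL20 and TRAF1 were also higher at levels under 2 FPKM in 3NQ. In each of these 4 genes 3NQ and WT were high and the other two libraries low. The lower member was RELA, the p65 subunit of NF-kappa B, at 160 FPKM in Luc, 154 in WT, 213 in the library labelled ΔTM and 78.9 in 3NQ (-1.01), so that 3NQ was below each of the other libraries. The inhibitor NFKBIA was at 67.6 and 70.5 FPKM (0.06). Of 19 immediate-early and AP-1 genes, JUN was at 14.96 FPKM in Luc and 24.6 in 3NQ (0.68) and FOSL1 at 79.5 and 126 (0.66), while FOS was at 32.6 and 25.9 (-0.32). JUN was at 31.8 in WT and 18.3 in the library labelled ΔTM, and FOSL1 at 140 and 93.6, so both were highest in WT. Against WT, 2 of these 19 genes were lower in 3NQ and none was higher, with a median of -0.18. The interferon response had 4 higher and 2 lower members of 31 and a median of 0.035, and with 5 added to each FPKM none of these 6 was called. IFITM1 (0.78, higher) and IFITM2 (-0.90, lower) overlap each other in the table, so that their reads may have been divided between them.

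Among growth factors and receptors, the lower members were spread over several pathways. In the ERBB list TGFA was lower, with Luc at 1071 FPKM and WT, the library labelled ΔTM and 3NQ at 91.9, 126 and 108, and the receptor ERBB3 was at 74.8 FPKM in Luc and 48.8 in 3NQ (-0.61). BMP7, a TGF-beta family ligand, was at 70.3, 69.6, 52.2 and 42.7 in Luc, WT, the library labelled ΔTM and 3NQ (-0.70). LEF1, a transcription factor of the Wnt pathway, was at 6.18, 7.57, 5.17 and 1.90 (-1.31), and the Wnt antagonist RNF43 was at 17.9 and 11.2 in Luc and 3NQ (-0.63). IGF2 was at 7.13, 5.81, 5.75 and 2.80 (-1.09), in a locus that overlaps INS-IGF2. For LEF1 and IGF2 the 3NQ library stood alone below the other 3, which lay close together.

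Other members of the fixed lists past 1.5-fold were few. BHLHA15, which encodes the secretory cell factor MIST1 and is itself an XBP1 target, was at 0.753 FPKM in Luc, 3.62 in WT, 3.31 in the library labelled ΔTM and 8.72 in 3NQ (2.47). LAMB3, a laminin chain of the basement membrane, was at 39.3, 87.7, 60.4 and 83.6 (1.07), and S100A4, a calcium-binding protein linked with cell motility, was at 61.3, 33.6, 60.6 and 33.4 (-0.85). The cystine transporter SLC7A11 was at 11.5 and 19.4 FPKM in Luc and 3NQ (0.70), and the tryptophanyl-tRNA synthetase WARS at 81.4 and 138 (0.75). ITGB8, GPX2, CD74, BMP4, NRG4, OASL and HIST1H2BG were lower and OAS1, IFI27, XAF1, HIST1H2AE and HIST1H3D higher, with ratios between -0.81 and 0.83. No gene was called among the lysosomal (33), respiratory complex (30), cytosolic ribosomal (44), glycolysis and hypoxia (25) or epithelial junction and keratin (24) genes that passed. Of all genes compared, 95.7% were likewise within 1.5-fold.

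Most of the largest ratios fell outside these lists, other than those of BHLHA15, FOXO1 and TGFA, and for several of them 1 library stood apart. ASPG, an asparaginase homologue, was at 0.020 FPKM in Luc, 0 in WT and in the library labelled ΔTM, and 290 in 3NQ. RCCD1 was at 19.0, 12.4, 17.2 and 1095, and MLLT10 at 17.2, 16.5, 17.3 and 170. For these genes 3 libraries lay at one level and 3NQ far above it. In INTS10, GRAMD4, MGLL and ZBTB20 the 3NQ library was likewise above each of the others. Among all genes, 31 (0.268%) were 1.5-fold or more above each of the other libraries in 3NQ and 24 (0.207%) were below each of them. At 5 FPKM or more in any library, these numbers were 19 and 15 of 9380 genes. The lower ones at this level included RELA, LEF1 and SPP1, the gene of osteopontin, at 15.3, 10.99, 11.4 and 5.70. AP000758.1, which overlaps ARHGEF12, was at 1318, 1649 and 1654 FPKM in Luc, WT and the library labelled ΔTM and listed at 0 in 3NQ.

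In other genes the libraries were divided differently. SF3B1, a splicing factor, was at 157 FPKM in Luc and 153 in WT, and at 1711 in the library labelled ΔTM and 1725 in 3NQ. MCM3AP was low in Luc alone, at 33.9, with 432, 260 and 267 in the others, and TUBA1A was at 14.7, 40.4, 103 and 90.6. IMMP1L was at 9820 in Luc, 5656 in WT, 18.2 in the library labelled ΔTM and 22515 in 3NQ, where it took 3.85% of the summed FPKM. TMEM105, at 1.69, 14.5, 123 and 15.3, was also among the 15 highest ratios.

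Among the 15 lowest ratios of genes not listed at 0 in either library, Luc alone was high in most. FOXO1, a transcription factor restrained by insulin signalling, was at 359 FPKM in Luc and at 1.41, 1.28 and 1.34 in WT, the library labelled ΔTM and 3NQ. RAPGEF6 was at 1081 FPKM in Luc and 6.51 in 3NQ, EFTUD1 at 780.5 and 16.0, PTPN12 at 734 and 30.3 and HDAC11 at 167 and 9.88. In these 5 genes WT and the library labelled ΔTM were as low as 3NQ or within 2-fold of it, so the difference was between Luc and every other library. NME2, GKAP1, ZNF28 and ERI2 had the same order with smaller ratios. Of the genes listed at 0 in 1 of the pair, AC007382.1 was at 368 FPKM in Luc and listed at 0 in the other 3 libraries. TPTE2P5 was at 181 in Luc, 202 in WT and 0.21 in the library labelled ΔTM, and RP3-323P13.2 at 9.47, 7.32 and 0, both listed at 0 in 3NQ. AC007319.1 was listed at 0 in Luc and was at 5.65 in 3NQ. Overlap with another gene entry was recorded for 13 of the 29 genes past 4-fold, against 41.6% of all genes compared; its part in these ratios was not tested.

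The pair of WT and the library labelled ΔTM shares neither library with 3NQ and Luc. In that pair 473 genes (4.09%) were higher in WT and 314 (2.71%) lower, with a median log2 ratio of 0.047. Among the 202 genes higher in 3NQ than Luc, the same pair had 41 that were higher in WT and 31 that were lower, and among the 301 lower genes it had 26 and 43. At 5 FPKM or more in any library, 27 genes were higher and 32 lower in both pairs. ALDH1A2, the enzyme that makes retinoic acid, was at 4.37 FPKM in Luc, 30.5 in WT, 3.99 in the library labelled ΔTM and 17.9 in 3NQ, and with KIAA1324, IL8, IMMP1L and JMJD7 it was among the 5 highest by the smaller of the 2 ratios. Of the lower ones NANOS1, an RNA-binding protein, was at 19.9, 4.32, 18.4 and 8.94, and SIGLEC6, a sialic acid-binding lectin, at 10.5, 4.27, 12.8 and 4.69. CMTM1, AL035252.1 and JMJD7-PLA2G4B completed that set, and each of these 3 overlaps another gene entry. The ER folding list went the other way in this pair, with 15 of 24 genes lower in WT than in the library labelled ΔTM and none higher.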

How the data were processed

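Total RNA from 4 MKN28 lines was poly(A)-selected and sequenced, 1 library each. According to the submitters' processing notes and the study, TopHat and Cufflinks 2.1.1 were used with GRCh37, and the authors deposited 1 table of FPKM values per gene; read totals were not analysed here. The kit does not mark strand, so overlapping genes may share reads. For this text, genes with at least 1 FPKM in 3NQ or Luc were kept, a pseudocount of 1 was added, and genes past 1.5-fold were called, with no test and no p-value because each construct had 1 library. For 166 repeated symbols, the lists used the entry with the higher mean FPKM. Motifs were searched on both strands of RefSeq promoter windows (Python 3.11.15, pandas 2.3.3, Biopython 1.88). The members and the 42 gene lists were chosen with earlier results of these data known. Genes were named by rule: KIAA1324; the 15 highest and 15 lowest ratios at 5 FPKM or more; genes listed at 0 in 1 library; list members past 1.5-fold, or otherwise the largest ratios; genes called in both separate pairs; and genes for which 3NQ lay outside the other 3 libraries. Some list members within 1.5-fold were named after their values were seen. Outside these rules, the paralogue KIAA1324L and the genes at the edge of the call were also named. FICD, SERP1 and the genes under other observations were likewise outside them and were named after their values were seen. The scripts were tested on simulated data. Alternatives tried were pseudocounts of 0.1 and 5, filters of 5 FPKM and none, 2 rescalings, a 2-fold threshold, and leaving out entries listed at 0 or, chosen after seeing the data, entries overlapping another. Some members of the sterol list are not reported here by name.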

Additional observations from a re-analysis of the deposited data

How the results depend on the processing

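No result has a replicate or a measure of depth, so small ratios cannot be weighed against error. No paired analysis was possible because each construct had 1 library. Counts of higher and lower genes (202 and 301) were 351 and 558 with a pseudocount of 0.1, 98 and 92 with a pseudocount of 5, and 58 and 61 past 2-fold; lower genes numbered 175 at 5 FPKM or more. Leaving out entries that overlap another, an alternative chosen after seeing the data, gave 106 and 175, with fewer genes compared. With no filter, either rescaling, or entries listed at 0 left out, the counts ranged from 201 to 229 higher and from 257 to 332 lower. A pseudocount of 5 took 29 of 173 named genes within the threshold, among them HMMR, CENPE, PPP1R15A, JUN, IL1A, FUT8, ERBB3, RNF43, SLC7A11 and the 6 called interferon genes, and moved the median of the NF-kappa B list from 0.31 to 0.20, and each rescaling took the same number, 5 (CENPE, ERBB3, ITGB8, MSMO1 and OASL). No named gene past 1.5-fold changed direction, and the direction of those within 1.5-fold was not scored. Among the lists, the medians of the pro-apoptotic, anti-apoptotic, gut lineage and histone genes, all near 0, changed sign with rescaling, and those of the proteasome and ERBB lists did so without the filter.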

Other observations

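Other secretory pathway genes outside the fixed lists were higher in 3NQ and were picked out after their values were seen. NUCB2, a calcium-binding protein of the secretory pathway, was at 22.8 FPKM in Luc, 44.9 in WT, 59.0 in the library labelled ΔTM and 72.1 in 3NQ (log2 ratio 1.62). SEC11C, a catalytic subunit of the signal peptidase, was at 20.9, 30.8, 43.3 and 52.3 (1.28), and SRPRB, a subunit of the receptor for the signal recognition particle, was at 73.0, 126, 90.0 and 153 (1.06). In all 3 genes Luc was the lowest library and 3NQ the highest. GFPT1, the rate-limiting enzyme of the hexosamine pathway that supplies the sugar nucleotide for N-glycans, was at 126 FPKM in Luc, 214 in WT, 176 in the library labelled ΔTM and 231 in 3NQ (0.87). PGM3, a later enzyme of that pathway, was at 25.1, 52.6, 24.5 and 42.6 (0.74), high in WT and 3NQ alone.

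SCD and DNMT1, also outside the fixed lists, were lower in 3NQ and were likewise picked out after their values were seen. SCD, the stearoyl-CoA desaturase, was at 204 FPKM in Luc, 166 in WT, 194 in the library labelled ΔTM and 124 in 3NQ (-0.72). DNMT1, the maintenance DNA methyltransferase, was at 122 FPKM in Luc and at 59.7, 75.5 and 71.4 in WT, the library labelled ΔTM and 3NQ (-0.77), so that Luc stood alone above the others.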
